A study of Mus musculus with 10 samples.

Results

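Of the 35275 genes in the deposited table, 10 were followed here: the Notch receptors Notch1, Notch2 and Notch3, the ligands Jag1, Dll1 and Dll4, the protease gene Adam10, the Notch target Hes1, and the secretory fate genes Atoh1 and Gfi1. They were chosen by name from the pathway, not by their values. All 10 reached the mean of 0.1 FPKM (fragments on a gene, scaled to its length and to the library's fragments on all genes) over the libraries that was required for testing, Notch3 only just, with a mean of 0.104 FPKM, and 15729 genes were tested in all. The RNA came from mechanically isolated jejunal epithelial cells of 10 adult C57BL/6 mice of the genotype VillinCreERT2;MYO5Bflox/flox. In this line the villin promoter confines a tamoxifen-inducible Cre recombinase to the intestinal epithelium, where it removes part of both Myo5b alleles. Control mice 2, 4 and 5 received corn oil and were not induced. Vehicle-treated MYO5B-knockout mice 3, 5, 6 and 7 received 2 mg of tamoxifen and a vehicle, and LPA-treated MYO5B-knockout mice 1, 4 and 5 received 2 mg of tamoxifen and lysophosphatidic acid (LPA), a signaling phospholipid, at 3 mg/kg. Epithelium was collected on day 4. Tamoxifen thus differed between the control mice and both knockout groups, and its effect and that of MYO5B loss cannot be told apart, whereas both knockout groups had received it. The description of LPA-treated mouse 1 names the vehicle as well as LPA, and it was grouped by its title.

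Notch is a receptor that is read out by cutting. A ligand of the Jagged or Delta-like family on one cell pulls on a Notch receptor of its neighbor, ADAM10 and then the γ-secretase complex cleave the receptor, and the freed intracellular domain enters the nucleus, joins RBPJ and switches on targets such as Hes1. In intestinal crypts HES1 represses Atoh1, the transcription factor that starts the secretory program of goblet, Paneth and enteroendocrine cells, so cells with strong Notch signaling become absorptive while their ligand-bearing neighbors become secretory. Gfi1 acts downstream of Atoh1 and favors goblet and Paneth over enteroendocrine fate. Dll1 and Dll4 are ligands made by the early secretory cells themselves.

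The promoters of Atoh1, Dll1 and Notch2 are shown because Atoh1 and Dll1 both reached their highest level of all 10 libraries in LPA-treated mouse 4, and because Notch2 was the member whose knockout groups lay farthest above the control mice. Each window holds the 250 bases before the RefSeq start on the GRCm38.p6 build, at chr6:64728875-64729124 on the plus strand for Atoh1, chr17:15376933-15377182 on the minus strand for Dll1 and chr3:98013288-98013537 on the plus strand for Notch2, written 5′ to 3′ along the gene. The RefSeq starts lie 21, 60 and 0 bases before the starts in the deposited table. Capitals mark matches to the E-box CANNTG, the type of site that ATOH1 and related factors bind.
Atoh1: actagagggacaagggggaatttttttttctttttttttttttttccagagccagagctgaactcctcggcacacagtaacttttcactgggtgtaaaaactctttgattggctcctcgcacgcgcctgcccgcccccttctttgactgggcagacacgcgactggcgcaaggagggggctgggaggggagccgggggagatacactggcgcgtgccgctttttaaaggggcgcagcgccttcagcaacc
Dll1: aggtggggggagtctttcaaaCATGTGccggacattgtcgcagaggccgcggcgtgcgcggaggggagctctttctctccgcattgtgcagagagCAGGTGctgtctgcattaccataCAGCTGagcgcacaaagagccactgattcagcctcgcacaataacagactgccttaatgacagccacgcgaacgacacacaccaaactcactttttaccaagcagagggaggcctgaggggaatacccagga
Notch2: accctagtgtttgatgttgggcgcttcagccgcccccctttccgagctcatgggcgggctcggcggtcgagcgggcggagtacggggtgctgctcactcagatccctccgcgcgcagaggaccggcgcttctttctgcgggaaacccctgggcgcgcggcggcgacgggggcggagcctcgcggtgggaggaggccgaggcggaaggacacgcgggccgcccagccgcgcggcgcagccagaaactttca
The Dll1 window holds 3 E-boxes, which begin 229, 155 and 132 bases before the start, and the Atoh1 and Notch2 windows hold 0. Windows of 9 of the 10 genes were matched, and 4 of the 9 (44.4%) hold an E-box on either strand, against 66.2% of all 32851 RefSeq promoter windows of the same length. The RBPJ motif TGGGAA, on either strand, occurs in 0 of the 9 windows and in 21.6% of all windows. The N-box CACNAG, a HES1 type of site, occurs in 4 of the 9 (44.4%) and in 36.7% of all windows.

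The reads on genes numbered 10949420 to 24470409 in a mouse, and 1 read on a gene of 1 kb was worth between 0.0409 and 0.0913 FPKM. The libraries of control mouse 2 and vehicle-treated mouse 3 stood apart, with 12242 and 12601 detected genes against 17309 to 18267 in the other 8 libraries, and with 17.4% and 18.0% of their reads on mitochondrial genes against at most 3.50%. Group differences are therefore also given for the remaining 8, called the gene-rich libraries. The labels call the mice male, but Xist lay at 8.41 FPKM in vehicle-treated mouse 3 and at 15.1 FPKM in LPA-treated mouse 1, where 4 Y-linked genes had 0 reads. Myo5b was lower in every knockout library (10.3 to 13.6 FPKM) than in every control library (16.5 to 31.9 FPKM). The epithelial markers Epcam and Vil1 were present in every library, as were low levels of other cell types: the summed FPKM of 14 leukocyte markers was 70.1 to 87.1 in control, 11.1 to 38.0 in vehicle-treated and 29.3 to 38.2 in LPA-treated mice, that of 10 endothelial markers 1.10 to 5.98, 2.06 to 11.7 and 3.43 to 7.18, and that of 14 mural cell and fibroblast markers 7.54 to 11.6, 6.08 to 8.91 and 9.75 to 20.1. No marker of these 3 lists was at 0 in every library. In such bulk samples, fewer cells of a type and less RNA per cell cannot be told apart. Nothing in the labels says how the mice of a group were related, so p-values measure the spread between these libraries.

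Hes1 was the most abundant of the 10 genes in each group by its mean FPKM, followed by Adam10, Dll1, Atoh1, Dll4 and Jag1, and Notch3 was the least abundant in each group. The order among the others differed, in that Gfi1 had a higher mean than Notch2 in control mice (0.858 against 0.436 FPKM) and a lower mean in LPA-treated mice (0.440 against 1.29 FPKM). Neighbors in the order were not always separate: the libraries of Hes1 and Adam10 overlapped in both knockout groups. In vehicle-treated mice Hes1 ranked first only through mouse 3, a library with few detected genes. Among the gene-rich vehicle-treated libraries Adam10 had the higher mean (29.3 against 18.5 FPKM). The libraries of Atoh1 and Dll4 overlapped in each of the 3 groups. Among the receptors, Notch1 and Notch3 stayed below 1 FPKM in every library.

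**Figure D1:**
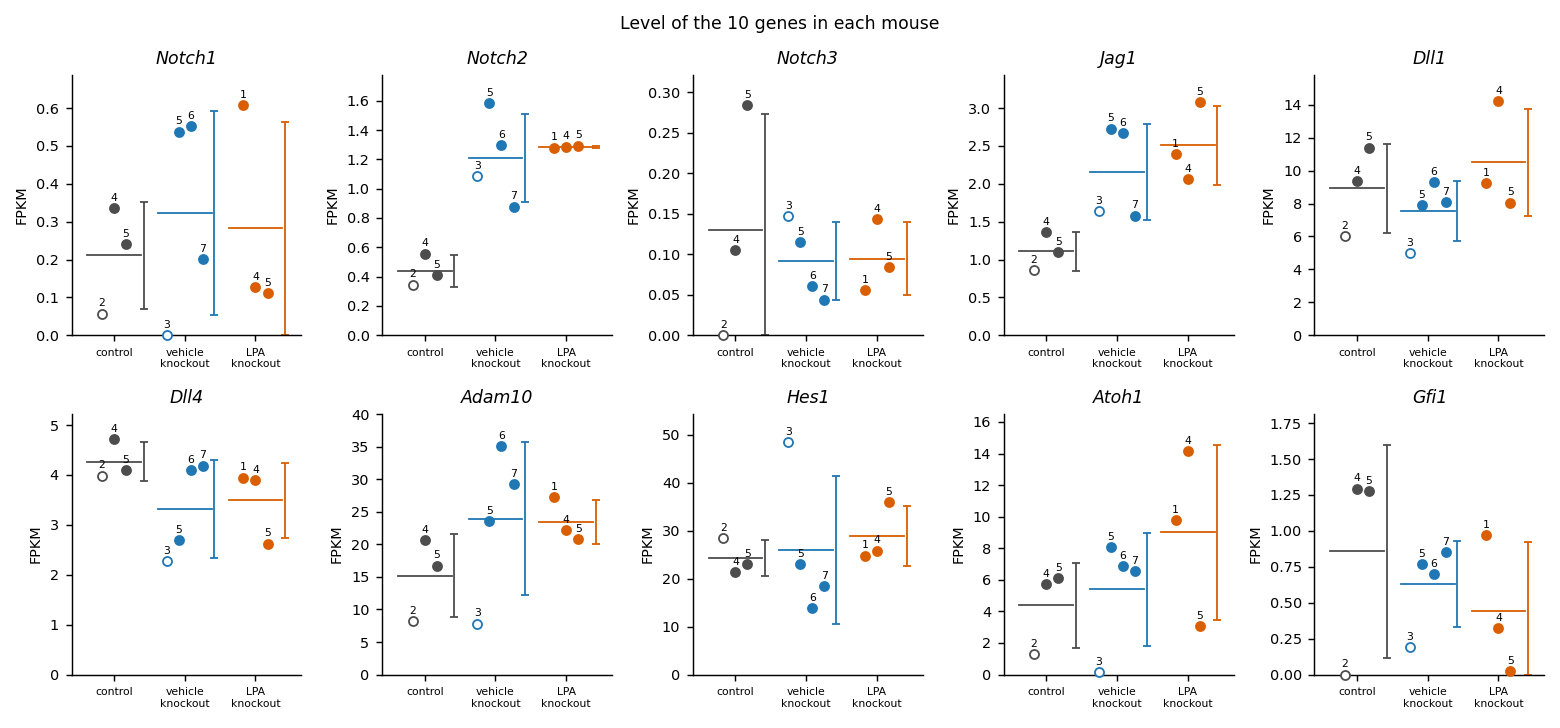
FPKM of each gene in each mouse on a linear axis from 0, by group, with the mouse number above each point. Lines are group means, bars are 1 SD on either side, cut at 0, and open points are the 2 libraries with few detected genes (control mouse 2 and vehicle-treated mouse 3). Notch2 lay between 1.28 and 1.29 FPKM in the LPA-treated mice, above every control mouse, whereas Atoh1 spread from 3.09 to 14.1 FPKM among the LPA-treated mice.

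The question that LPA treatment poses is whether the pathway differed between LPA-treated and vehicle-treated MYO5B-knockout mice, and for none of the 10 genes did the difference pass the test. Their log2 fold changes, on the scale of log2(FPKM + 0.1), lay between -0.78 for Gfi1 and 1.32 for Atoh1, 8 above 0 and 2 below, with a median of 0.13, beside a median of 0.11 over all genes tested and 9547 of 15729 genes above 0. Among the 8 gene-rich libraries 6 of the 10 were above 0 with a median of 0.08, beside a median of -0.11 over all genes and 6525 of them above 0. Of all genes tested, 0% passed limma's test at an adjusted p of 0.05. At an unadjusted p under 0.05, limma found 0 of the 10 genes and 459 of all genes, and in the gene-rich libraries 0% of all genes passed as well. Without LPA-treated mouse 1, whose label names both treatments, limma again called 0 of the 10 and 0 of all genes. On the recovered reads edgeR also called 0 of the 10 genes and 0 of all genes (446 at an unadjusted p under 0.05), and DESeq2 called 0 of the 10 and 7 of all genes. For none of the 10 genes were the LPA-treated and vehicle-treated libraries free of overlap, where 4.16% of all genes tested were. Among the 8 gene-rich libraries, 1 of the 10, Hes1, was free of overlap, against 11.8% of all genes tested.

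**Figure D2:**
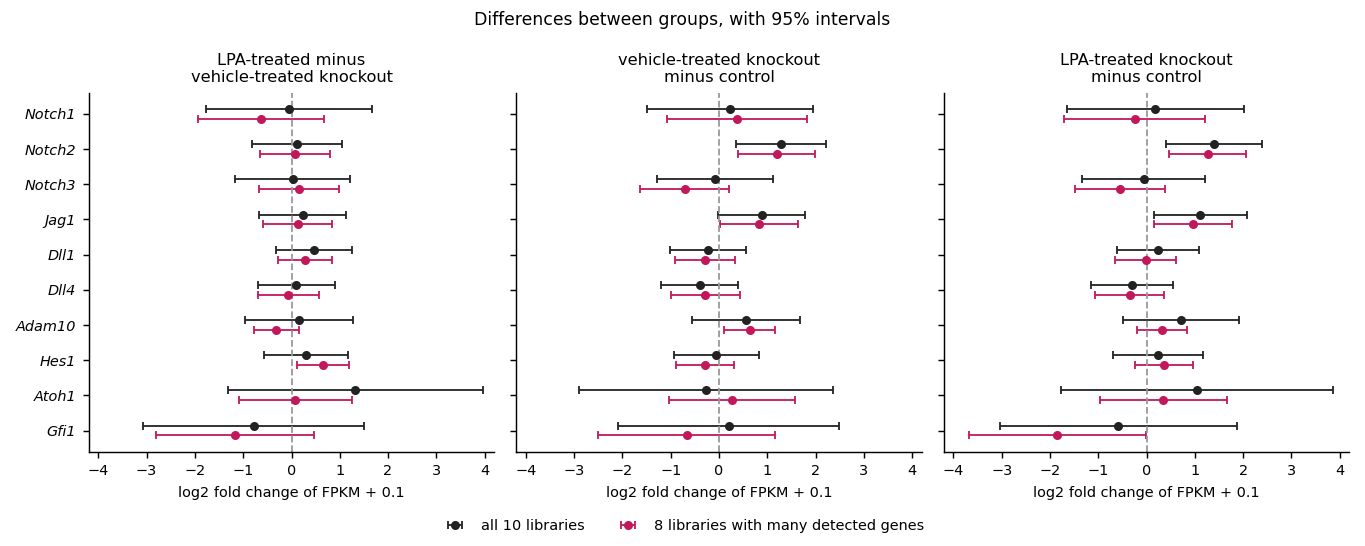
Log2 fold change of FPKM + 0.1 for each gene in the 3 comparisons, with 95% intervals from the limma model, for all 10 libraries (black) and for the 8 gene-rich libraries (magenta). The dashed line marks no difference. In the left panel only the interval of Hes1 clears 0, and only in the 8 libraries (0.11 to 1.19). With all 10 libraries Notch2 clears 0 in the middle and right panels and Jag1 in the right panel. In the 8 libraries Notch2 and Jag1 clear 0 in both of these panels, Adam10 in the middle and Gfi1 in the right panel.

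Among the receptors, Notch2 was the one whose level varied least among the LPA-treated mice. Notch2 (ENSMUSG00000027878, chromosome 3 from 98013538 to 98150367, plus strand) lay at 1.28, 1.29 and 1.29 FPKM in the LPA-treated mice 1, 4 and 5, from 329, 234 and 181 reads. These values were closer together than counting error alone would make likely. Their exact Poisson 95% intervals were 1.145 to 1.426, 1.128 to 1.463 and 1.111 to 1.496 FPKM. In the vehicle-treated mice 3, 5, 6 and 7 Notch2 lay at 1.09, 1.58, 1.29 and 0.878 FPKM, and in control mice 2, 4 and 5 at 0.345, 0.556 and 0.408 FPKM. All 7 knockout libraries were thus above all 3 control libraries, and the 2 knockout groups overlapped. The log2 fold change of Notch2 between LPA-treated and vehicle-treated mice was 0.11 (95% interval -0.82 to 1.04, limma adjusted p = 1). Against the control mice it was 1.39 in LPA-treated mice (standard error, SE, 0.45, limma adjusted p = 0.151) and 1.28 in vehicle-treated mice (SE 0.42, limma adjusted p = 0.147). The last value gave a 95% interval of 0.35 to 2.21. DESeq2 on the recovered reads was the tool that called Notch2, at 1.22 in LPA-treated mice (DESeq2 adjusted p = 0.0035) and 1.20 in vehicle-treated mice (DESeq2 adjusted p = 0.0019).

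Notch1 (ENSMUSG00000026923, chromosome 2 from 26457903 to 26516663, minus strand), which acts together with Notch2 in crypt maintenance, differed among the LPA-treated mice. Mouse 1 held it at 0.607 FPKM (141 reads) and mice 4 and 5 at 0.128 and 0.111 FPKM (21 and 14 reads). The exact Poisson 95% intervals, which cover counting error only, ran from 0.511 to 0.716 FPKM in mouse 1 and reached at most 0.196 FPKM in mice 4 and 5. Vehicle-treated mice 3, 5, 6 and 7 had 0, 0.538, 0.552 and 0.201 FPKM, where the 0 reads of mouse 3 allow up to 3 reads or 0.0289 FPKM by the one-sided limit for a count of 0, not the two-sided interval used above, and control mice 2, 4 and 5 had 0.0573, 0.335 and 0.241 FPKM. LPA-treated mouse 1 was thus the highest of all 10 libraries, and LPA-treated mice 4 and 5 were the lowest of the 8 libraries with many detected genes. The mean of the LPA-treated group, 0.282 ± 0.282 FPKM (SD, n = 3), was near that of the vehicle-treated group, 0.323 ± 0.270 FPKM (SD, n = 4), and the log2 fold change was -0.05 (95% interval -1.77 to 1.67, limma adjusted p = 1). Among the 8 gene-rich libraries it was -0.63 (limma adjusted p = 0.595). Leaving out single mice moved it from -0.63 without vehicle-treated mouse 3 to 0.27 without vehicle-treated mouse 6. The opposite-strand gene 0610009E02Rik overlaps Notch1 and had 6.09% of its read number, and no source states whether strand was used in counting.

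Notch3 (ENSMUSG00000038146, chromosome 17 from 32120820 to 32166880, minus strand), a receptor best known from vascular mural cells, was close to the detection limit everywhere. LPA-treated mice 1, 4 and 5 had 11, 20 and 9 reads (0.0559, 0.144 and 0.0840 FPKM). Vehicle-treated mice 3, 5, 6 and 7 had 13, 16, 10 and 8 reads (0.148, 0.115, 0.0608 and 0.0441 FPKM), while control mice 2, 4 and 5 had 0, 13 and 40 reads (0, 0.105 and 0.284 FPKM). Control mouse 5 was therefore the highest library and control mouse 2 the lowest, with the knockout groups in between and overlapping. At this depth no difference between LPA-treated and vehicle-treated mice was detectable, with a log2 fold change of 0.03 (95% interval -1.16 to 1.22, limma adjusted p = 1) and 0.16 in the gene-rich libraries. Its overlap with Gm17276, which had 14.3% as many reads, adds to the uncertainty. Among LPA-treated mice 1, 4 and 5, the summed mural cell and fibroblast markers were 9.75, 16.9 and 20.1 FPKM, and their part in the level of Notch3 was not tested.

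Of Jag1, Dll1 and Dll4, it was Dll1 (ENSMUSG00000014773, chromosome 17 from 15367354 to 15376872, minus strand) that had the largest log2 fold change between the knockout groups, again within the spread of the mice. LPA-treated mice 1, 4 and 5 held it at 9.255, 14.2 and 8.05 FPKM, vehicle-treated mice 3, 5, 6 and 7 at 4.999, 7.92, 9.28 and 8.08 FPKM, and control mice 2, 4 and 5 at 6.02, 9.34 and 11.4 FPKM. LPA-treated mouse 4 was the highest library of all, while mice 1 and 5 fell inside the range of the vehicle-treated mice. The log2 fold change of Dll1 was 0.46 between LPA-treated and vehicle-treated mice (SE 0.36, 95% interval -0.33 to 1.25, limma adjusted p = 1), and 0.27 among the 8 gene-rich libraries. It stayed above 0 in all 17 alternative fits, from 0.22 to 0.63. Relative to the control mice, by contrast, Dll1 was at 0.24 in LPA-treated and at -0.22 in vehicle-treated mice (limma adjusted p = 0.786 and 0.79), and the former was -0.13 after median-of-ratios scaling. Its 3 E-boxes are shown above. A930024N18Rik, on the opposite strand, had 5.14% as many reads as Dll1.

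Jag1 (ENSMUSG00000027276, chromosome 2 from 137081456 to 137116644, minus strand), a ligand of the Jagged family, lay at 2.39, 2.06 and 3.08 FPKM in the LPA-treated mice 1, 4 and 5. The vehicle-treated mice 3, 5, 6 and 7 had 1.64, 2.73, 2.67 and 1.58 FPKM, and the control mice 2, 4 and 5 had 0.855, 1.37 and 1.10 FPKM. As with Notch2, all knockout libraries exceeded all control libraries, and the knockout groups overlapped each other. Between LPA-treated and vehicle-treated mice the log2 fold change was 0.23 (95% interval -0.67 to 1.14, limma adjusted p = 1), and 0.13 in the gene-rich libraries. Between LPA-treated and control mice it was 1.12 (SE 0.43, limma adjusted p = 0.232), and it was 0.96 in the gene-rich libraries (limma adjusted p = 0.128).

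Dll4 (ENSMUSG00000027314, chromosome 2 from 119325784 to 119335962, plus strand), the other Delta-like ligand, differed little between the knockout groups. It was read at 3.95, 3.90 and 2.62 FPKM in the LPA-treated mice 1, 4 and 5, at 2.27, 2.69, 4.10 and 4.19 FPKM in vehicle-treated mice 3, 5, 6 and 7, and at 3.99, 4.71 and 4.10 FPKM in control mice 2, 4 and 5. The 3 LPA-treated libraries lay below the 3 control libraries, with LPA-treated mouse 1 at 3.95 and control mouse 2 at 3.99 FPKM as the closest pair, and the fitted log2 fold change was -0.30 (95% interval -1.16 to 0.55, limma adjusted p = 0.732). Between LPA-treated and vehicle-treated mice it was 0.10 (95% interval -0.70 to 0.90, limma adjusted p = 1), and -0.06 without vehicle-treated mouse 3. Gm14207 overlaps Dll4 on the opposite strand with 26.3% as many reads.

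Adam10 (ENSMUSG00000054693, chromosome 9 from 70678997 to 70780229, plus strand) makes the first activating cut of a ligand-bound receptor. With all libraries it had the second highest mean FPKM of the 10 genes in each group. Its level was 27.2, 22.2 and 20.8 FPKM in the LPA-treated mice 1, 4 and 5. It was 7.83, 23.6, 35.1 and 29.3 FPKM in vehicle-treated mice 3, 5, 6 and 7, and 8.24, 20.7 and 16.7 FPKM in control mice 2, 4 and 5. The lowest libraries were the 2 with few detected genes, and apart from vehicle-treated mouse 3 every knockout library was above every control library. Its log2 fold change between LPA-treated and vehicle-treated mice was 0.15 with all libraries (95% interval -0.97 to 1.28, limma adjusted p = 1) and -0.32 in the gene-rich libraries (95% interval -0.79 to 0.15, limma adjusted p = 0.501). Against the control mice, LPA-treated mice were at 0.71 and vehicle-treated mice at 0.56 (limma adjusted p = 0.539 and 0.606).

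Hes1 (ENSMUSG00000022528, chromosome 16 from 30064384 to 30067796, plus strand), the repressor that is the best known output of Notch in the crypt, was present at 24.8, 25.9 and 36.0 FPKM in the LPA-treated mice 1, 4 and 5, or 28.9 ± 6.17 FPKM (SD, n = 3). Vehicle-treated mice 3, 5, 6 and 7 had 48.5, 23.0, 13.9 and 18.5 FPKM, and control mice 2, 4 and 5 had 28.5, 21.4 and 23.0 FPKM. The highest of the 10 libraries, vehicle-treated mouse 3, was 1 of the 2 with few detected genes, and in control mice, too, the library with few detected genes was the highest. Among the other 8 libraries the 3 LPA-treated mice were above both the 3 vehicle-treated and the 2 control mice. The highest of these 8, LPA-treated mouse 5, had the highest mitochondrial share of them (3.50%). The part of that share in the level of Hes1 was not tested. Over all libraries the log2 fold change between LPA-treated and vehicle-treated mice was 0.30 (SE 0.40, 95% interval -0.58 to 1.17, limma adjusted p = 1). In the gene-rich libraries it was 0.65 (SE 0.23, 95% interval 0.11 to 1.19), which did not pass over all genes (limma adjusted p = 0.468). There limma found 1613 of 15729 genes at an unadjusted p under 0.05. On the recovered reads of all 10 libraries the log2 fold change of Hes1 turned in sign, to -0.06 with edgeR and -0.11 with DESeq2. LPA-treated mice were at 0.24 and vehicle-treated mice at -0.06 against the control mice (limma adjusted p = 0.807 and 0.96).

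Atoh1 (ENSMUSG00000073043, chromosome 6 from 64729146 to 64731233, plus strand), the gene that HES1 represses, had the largest fitted change of the 10 genes between the knockout groups and also the widest interval. LPA-treated mice 1, 4 and 5 had 9.79, 14.1 and 3.09 FPKM, from 500, 511 and 86 reads. Vehicle-treated mice 3, 5, 6 and 7 had 0.131, 8.06, 6.89 and 6.56 FPKM, from 3, 290, 294 and 309 reads, and control mice 2, 4 and 5 had 1.30, 5.72 and 6.13 FPKM. LPA-treated mice 4 and 1 were the 2 highest libraries, while LPA-treated mouse 5 was below every library except the 2 with few detected genes. The group means were 9.01 ± 5.57 FPKM (SD, n = 3) with LPA and 5.41 ± 3.58 FPKM (SD, n = 4) with vehicle, and the log2 fold change was 1.32 (SE 1.19, 95% interval -1.31 to 3.96, limma adjusted p = 1). This value rested on vehicle-treated mouse 3, since it was 0.08 among the 8 gene-rich libraries (95% interval -1.09 to 1.25, limma adjusted p = 0.949). Between LPA-treated and control mice it was 1.05, and 0.35 in the gene-rich libraries.

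Gfi1 (ENSMUSG00000029275, chromosome 5 from 107716657 to 107726036, minus strand) was highest in mouse 1 of the LPA-treated mice, where Atoh1 was highest in mouse 4. LPA-treated mouse 5 was the lowest of its group for both genes. Gfi1 had 68 reads in mouse 1, 16 in mouse 4 and 1 in mouse 5, or 0.972, 0.323 and 0.0262 FPKM. For the single read of mouse 5 the exact Poisson 95% interval reached 0.146 FPKM, below the lower bound of 0.185 FPKM in mouse 4 and of 0.755 FPKM in mouse 1, so the spread of the LPA-treated mice exceeded counting error. Vehicle-treated mice 3, 5, 6 and 7 had 0.192, 0.771, 0.702 and 0.853 FPKM, and control mice 2, 4 and 5 had 0, 1.29 and 1.28 FPKM, where the one-sided limit for the 0 reads of mouse 2 is 3 reads or 0.0950 FPKM. Apart from the 2 libraries with few detected genes, LPA-treated mice 4 and 5 were the lowest and all 3 LPA-treated mice were below both control mice. The log2 fold change between LPA-treated and vehicle-treated mice was -0.78 (SE 1.03, 95% interval -3.07 to 1.51, limma adjusted p = 1) and -1.18 in the gene-rich libraries (limma adjusted p = 0.484). It was 0.02 without LPA-treated mouse 5 and -1.52 without LPA-treated mouse 1. Against the control mice, the log2 fold change of LPA-treated mice was -0.58 with all libraries (limma adjusted p = 0.822) and -1.85 in the gene-rich libraries (95% interval -3.68 to -0.02, limma adjusted p = 0.181).

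**Figure D3:**
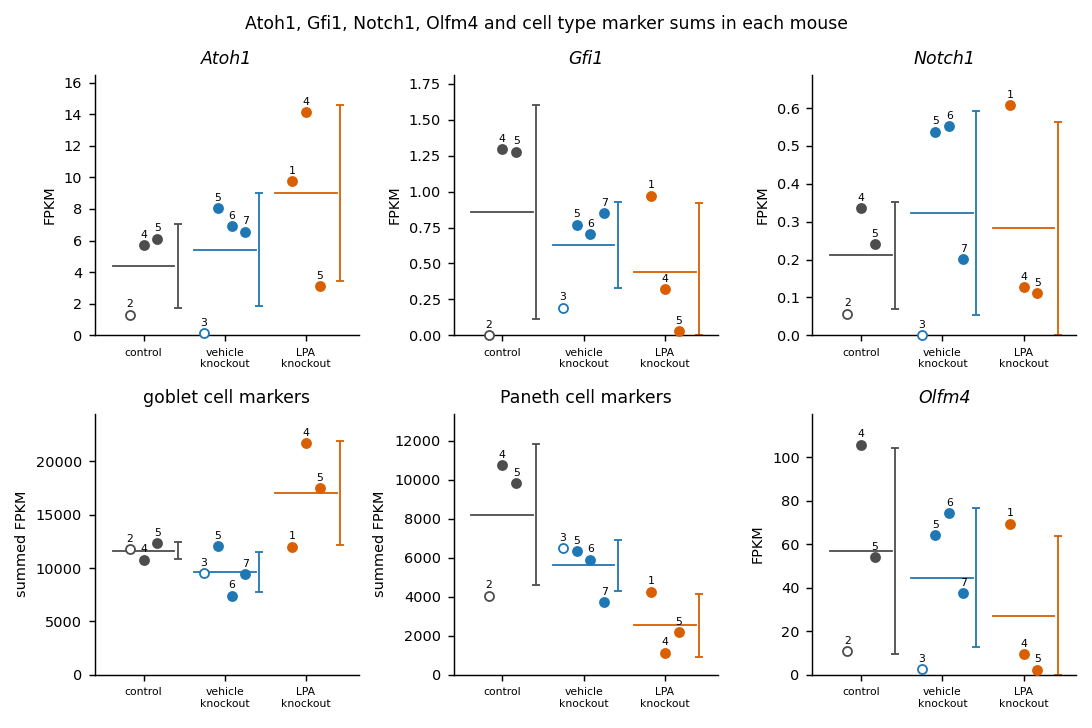
FPKM of Atoh1, Gfi1, Notch1 and Olfm4 and the summed FPKM of 10 goblet cell and 10 Paneth cell markers in each mouse, on linear axes from 0, with means (lines), 1 SD on either side cut at 0 (bars), mouse numbers above the points and open points for the 2 libraries with few detected genes. LPA-treated mouse 1 was above mice 4 and 5 for Gfi1, Notch1, Olfm4 and the Paneth cell markers, and below both for the goblet cell markers.

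The 3 LPA-treated mice therefore did not form a uniform group. Mouse 1 was above mice 4 and 5 for Notch1 and Gfi1, and the same order was seen for Olfm4, which encodes a crypt base protein listed here among the Notch targets, with 69.3 FPKM in mouse 1, 9.30 in mouse 4 and 2.24 in mouse 5. Olfm4 was at 37.4 to 74.3 FPKM in the other vehicle-treated mice and at 2.45 FPKM in vehicle-treated mouse 3, so the groups overlapped, and its log2 fold change was -1.17 (SE 1.37, limma adjusted p = 1) and -2.29 among the 8 gene-rich libraries. Mitochondrial genes took 2.44%, 1.98% and 3.50% of the reads of LPA-treated mice 1, 4 and 5, the last being the highest share of the 8 gene-rich libraries. The enterocyte genes Vil1 and Apoa4 had the same order as Gfi1, whereas the 12 enterocyte markers summed to 32100, 60320 and 41810 FPKM in mice 1, 4 and 5. Some markers of that list shared the order and others did not, such as Fabp1 (9270, 19390 and 18590 FPKM) and Rbp2 (8546, 15840 and 12590 FPKM). Vil1 was listed with the epithelial markers, where Cdh1 (230.1, 236.3 and 251.4 FPKM) and Krt18 (785.9, 1054 and 1278 FPKM) had the opposite order. Vil1, an enterocyte brush border gene, was at 474.7, 334 and 107.4 FPKM in mice 1, 4 and 5, and Apoa4, an apolipoprotein of enterocytes, at 2722, 2465 and 184.8 FPKM. Both genes were also low in the 2 libraries with few detected genes, Vil1 at 216.5 and 69.3 FPKM and Apoa4 at 119.7 and 58.3 FPKM in control mouse 2 and vehicle-treated mouse 3. Marker sums of the secretory cell types followed other orders. The 10 Paneth cell markers summed to 4261, 1121 and 2183 FPKM in the LPA-treated mice 1, 4 and 5, against 3704 to 6506 in vehicle-treated and 4056 to 10760 in control mice. The 10 goblet cell markers, of which Atoh1 is 1 and Ang4 is shared with the Paneth list, summed to 12000, 21710 and 17490 FPKM in the LPA-treated mice 1, 4 and 5, against 7416 to 12040 in vehicle-treated and 10790 to 12330 in control mice. The 15 enteroendocrine markers summed to 303, 476.6 and 745.9 FPKM in LPA-treated mice 1, 4 and 5, against 210.8 to 375.2 in vehicle-treated and 477.7 to 1029 in control mice. The 11 tuft cell markers summed to 7.80, 6.72 and 8.45 FPKM in LPA-treated mice 1, 4 and 5. Their sums were 4.33 to 6.20 in vehicle-treated and 13.9 to 19.0 in control mice. Of 9 tested tuft cell markers 7 were above 0 between the knockout groups, with a median of 0.34, and 0 passed limma's test. Of 10 tested Paneth cell markers 9 had a log2 fold change below 0, with a median of -1.29. Above 0 were 9 of 10 tested goblet cell markers and 15 of 15 enteroendocrine markers, with medians of 0.62 and 0.64. In the gene-rich libraries the medians of the Paneth, goblet, enteroendocrine and tuft cell markers were -1.25, 0.43, 0.40 and 0.20. There, 11 of the 15 enteroendocrine markers were above 0. None of these markers passed limma's test, and none of all genes tested did. At an unadjusted p under 0.05, limma found 6 Paneth, 3 goblet, 3 enteroendocrine and 0 tuft cell markers, beside 459 of 15729 genes. The summed endothelial markers were 3.43, 5.92 and 7.18 FPKM in the LPA-treated mice 1, 4 and 5. LPA-treated mouse 1 is also the mouse whose label names both treatments and whose library held Xist. The part of these measures in the values of Hes1, Notch1, Gfi1, Olfm4, Numb and Snw1 was not tested.

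In the other 2 comparisons the 10 genes share the control mice, so the values are given side by side. Between vehicle-treated and control mice 0 of the 10 genes passed limma's test, where 2.01% of all genes tested did, and between LPA-treated and control mice again 0 of the 10 passed, where 2.32% did. At an unadjusted p under 0.05 limma found 1 of the 10 genes in the former comparison (Notch2) and 2 in the latter (Notch2 and Jag1). edgeR called 0 of the 10 in both, and DESeq2 called 1 in both, Notch2. The 2 groups did not overlap for 2 of the 10 genes in vehicle-treated against control mice (Notch2 and Jag1, both higher), beside 17.2% of all genes tested. They did not overlap for 4 of the 10 in LPA-treated against control mice (Notch2, Jag1 and Adam10 higher, Dll4 lower), beside 26.9% of all genes. Among the 8 gene-rich libraries, these counts were 6 of 10 in each comparison, beside 55.9% and 45% of all genes, so the shares of the members that did not overlap were not far from those of the table. Over all genes the log2 fold changes had a median of 0.29 and 0.41 in these comparisons and 0.04 and 0.10 after median-of-ratios scaling, and relative to it Notch2 and Jag1 were still higher in both knockout groups. Their own log2 fold changes against the control mice were above 0 in each of the 17 alternative fits of either comparison.

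Beyond the 10 genes, 86 genes of the pathway and of secretory fate, the 10 included, were listed by role, and 76 of them were tested. Between LPA-treated and vehicle-treated mice 0 of the 76 passed limma's test or had an unadjusted p under 0.05, 45 log2 fold changes were above 0 and 31 below, and the median was 0.11, equal to that of all genes tested. In the gene-rich libraries 31 of the 76 were above 0 and the median was -0.09, again near that of all genes. The 4 receptors had a median of 0.07 and the 4 tested ligands one of 0.35 (0.11 and 0.20 in the gene-rich libraries). The fourth receptor, Notch4, which is known from endothelium, lay at 1.26, 0.842 and 1.00 FPKM in the LPA-treated mice 1, 4 and 5, at 0.139, 1.45, 0.639 and 0.800 FPKM in vehicle-treated mice 3, 5, 6 and 7, and at 0, 0.236 and 0.277 FPKM in control mice 2, 4 and 5. All LPA-treated mice were thus above all control mice, by 2.27 on the log2 scale (limma adjusted p = 0.169) and 1.65 in the gene-rich libraries (limma adjusted p = 0.0492). Of 10 endothelial markers 6 were tested between LPA-treated and control mice, 5 of the 6 were above 0 with a median of 0.91, and Tie1, an endothelial receptor, passed (log2 fold change 2.91, limma adjusted p = 0.0444). In the gene-rich libraries 6 of the 6 were above 0 with a median of 1.48. All genes tested had a median of 0.41 in this comparison, and 0.13 in the gene-rich libraries. Of the same 6 markers, 3 were above 0 between vehicle-treated and control mice, with a median of 0.16. Notch4 was at 1.59 there (limma adjusted p = 0.281). From vehicle-treated to LPA-treated mice 5 of the 6 markers were above 0, with a median of 1.03 (1.20 in the gene-rich libraries). The part of endothelial cells in the level of Notch4 was not tested. Between the knockout groups the log2 fold change of Notch4 was 0.67 (limma adjusted p = 1) and 0.15 in the gene-rich libraries. Jag2, the other Jagged ligand, was at 0.776, 1.35 and 0.703 FPKM with LPA and at 0.0901, 0.959, 0.447 and 0.295 FPKM with vehicle, a log2 fold change of 1.14 (SE 0.70, limma adjusted p = 1) that was 0.72 in the gene-rich libraries and 0.44 to 1.55 over the alternative fits.

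With all libraries 1 of the 76 listed genes, Neurl1b, passed limma's test in each comparison with control mice, where 2.01% and 2.32% of all genes tested did. In the gene-rich libraries 5 of the 76 passed between vehicle-treated and control mice, where 4.95% of all genes did, and 7 of the 76 between LPA-treated and control mice, where 8.56% did. Besides Neurl1b, Hes2 and Spdef, these were Foxa1 in both comparisons (log2 fold changes 1.61 and 1.41, limma adjusted p = 0.0231 and 0.0227), Rfng in the former (-1.22, limma adjusted p = 0.0417), and Heyl (-1.75), Foxa3 (0.89) and Notch4 in the latter (limma adjusted p = 0.0425, 0.0466 and 0.0492). Foxa1 and Foxa3 encode forkhead factors of the secretory list, and Heyl is a Notch target. Neurl1b (ENSMUSG00000034413), an E3 ubiquitin ligase of the Neuralized family that promotes ligand endocytosis, was at 1.14, 1.37 and 0.981 FPKM in the LPA-treated mice 1, 4 and 5, at 1.44, 1.64, 1.45 and 1.93 FPKM in vehicle-treated mice 3, 5, 6 and 7, and at 11.7, 5.29 and 4.72 FPKM in control mice 2, 4 and 5. The 3 groups did not overlap, with control highest and LPA-treated lowest. Neurl1b fell by 2.43 on the log2 scale between LPA-treated and control mice (SE 0.45, limma adjusted p = 0.022) and by 1.98 between vehicle-treated and control mice (SE 0.42, limma adjusted p = 0.0432). Between the knockout groups its log2 fold change was -0.44 (95% interval -1.36 to 0.48, limma adjusted p = 1). Among the 8 gene-rich libraries both falls passed too, at -2.02 and -1.53 (limma adjusted p = 0.0095 and 0.0324). With single mice left out, the fall in LPA-treated mice passed only without control mouse 2 (limma adjusted p = 0.0347) and not without control mouse 4 or 5 or any LPA-treated mouse (0.0668 to 0.102). The fall in vehicle-treated mice passed only without vehicle-treated mouse 3 (limma adjusted p = 0.049) and not without any control mouse or vehicle-treated mouse 5, 6 or 7 (0.0711 to 0.121). Neither fall passed in a fit of only the 2 groups compared (limma adjusted p = 0.0795 with LPA and 0.113 with vehicle), nor the fall with vehicle without a filter on low values (limma adjusted p = 0.0636). The related Neurl3 was the most abundant gene of this list, at 197.8 to 203 FPKM with LPA and 161.7 to 244 FPKM with vehicle (log2 fold change 0.11, and 0.245 in the gene-rich libraries). Mib2, another ligase of ligands, had a log2 fold change of 0.37.

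Among the γ-secretase and other processing genes the median between the knockout groups was -0.0004 (-0.32 in the gene-rich libraries, with 3 of 9 above 0), and the γ-secretase subunit Psenen, the most abundant, was at 121 to 176 FPKM with LPA and 96.5 to 126 FPKM with vehicle (log2 fold change 0.43, standard error 0.23). Aph1b, another subunit, was at -0.34 from 5 to 32 reads per knockout library, and at 0.0051 in the gene-rich libraries. The Fringe genes, whose enzymes add sugars that set ligand preference, gave log2 fold changes of -0.01 for Rfng, 1.03 for Mfng and -0.32 for Lfng, with standard errors of 0.36, 0.88 and 0.45, and 0.22, 0.52 and -0.07 in the gene-rich libraries. In the nuclear complex Snw1 and Cir1 were at -1.25 and -0.65 (-2.12 and -0.44 in the gene-rich libraries), but each shares its locus with an opposite-strand gene that had 90.1% (Slirp) and 83.8% (Scrn3) as many reads. Snw1 also spread widely within groups, with 526 reads in LPA-treated mouse 1, 110 in mouse 4 and 10 in mouse 5. Vehicle-treated mouse 3 held 20 reads of it against 391 to 537 in the rest of its group, and control mouse 2 held 0. Its 95% interval in the gene-rich libraries ran from -4.39 to 0.16. Among genes of turnover and inhibition, Numb, an inhibitor of Notch, was at -0.20, Dtx3 at 1.47 and Dtx1 at -0.90 (standard errors 0.89, 0.79 and 0.78), and at -0.95, 1.00 and -0.48 in the gene-rich libraries. Numb, like Gfi1 and Notch1, was highest in LPA-treated mouse 1 and lower in mice 4 and 5, at 22.9, 16.2 and 6.45 FPKM. None of these differences passed limma's test (adjusted p = 1 for each).

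**Figure D4:**
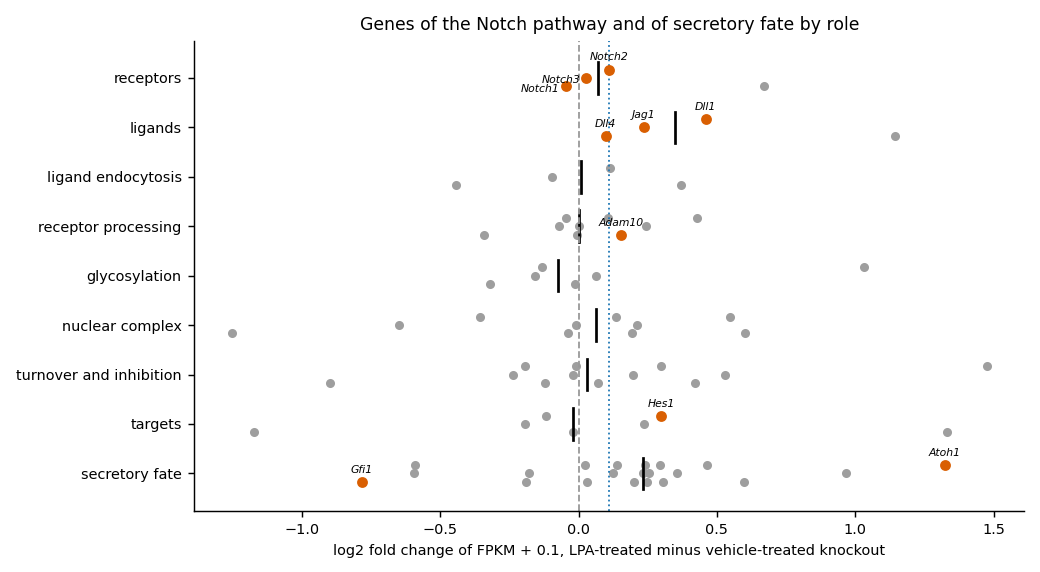
Log2 fold change of FPKM + 0.1 between LPA-treated and vehicle-treated MYO5B-knockout mice for the 76 tested genes, by role, with the 10 genes named and in orange, the other genes in gray, the median of each role as a black line, no difference as a dashed line and the median of all genes tested as a dotted line. The genes of most roles scatter on both sides of the dotted line at 0.11, and those farthest out, Dtx3 at 1.47 and Snw1 at -1.25, did not pass the test.

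Of 7 tested Notch targets, 3 were above 0 and 4 below between the knockout groups, with a median of -0.02, and in the gene-rich libraries 4 were above 0 with a median of 0.07. Hey1, a target that many tissues use beside Hes1, had 10, 6 and 7 reads in LPA-treated mice 1, 4 and 5 and 0, 0, 0 and 4 reads in vehicle-treated mice 3, 5, 6 and 7. The groups did not overlap, and the log2 fold change was 1.33 (SE 0.65, limma adjusted p = 1), but control mouse 2 had 13 reads and the other control mice 0 and 1. Hes2, a relative of Hes1 singled out here after its values were seen, stood out against the control mice and not between the knockout groups. It was at 1.25, 0.802 and 0.298 FPKM with LPA, at 0.0724, 0.736, 1.49 and 2.20 FPKM with vehicle and at 5.42, 13.1 and 19.3 FPKM in control mice 2, 4 and 5. Its log2 fold change against the control mice was -3.84 with LPA and -3.72 with vehicle (limma adjusted p = 0.0637 and 0.0595), and it passed among the 8 gene-rich libraries (-4.35 and -3.46, limma adjusted p = 0.0097 and 0.0293). Between the knockout groups the difference was -0.12, and -0.89 in the gene-rich libraries (limma adjusted p = 0.491). Hes1, by comparison, had no log2 fold change beyond 0.30 in either direction in any of the 3 comparisons with all libraries.

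Of 21 secretory fate genes, Atoh1 and Gfi1 included, 16 had a log2 fold change above 0 between LPA-treated and vehicle-treated mice and 5 below, with a median of 0.23, whereas among the 8 gene-rich libraries 7 were above 0 and the median was -0.15. Xbp1, which expands the secretory machinery, was the most abundant, at 149, 133.8 and 131 FPKM in the LPA-treated mice 1, 4 and 5 and at 67.3, 148, 134 and 133 FPKM in vehicle-treated mice 3, 5, 6 and 7. Neurod1, an enteroendocrine factor, was at 1.02, 1.48 and 2.23 FPKM with LPA and at 0, 1.96, 1.51 and 1.27 FPKM with vehicle, with a log2 fold change of 0.97 that became -0.04 in the gene-rich libraries. Spdef, which acts below Atoh1 in goblet and Paneth maturation and was singled out after its values were seen, was at 23.9, 17.3 and 20.4 FPKM with LPA, at 9.97, 21.9, 16.5 and 20.3 FPKM with vehicle and at 6.87, 10.3 and 8.47 FPKM in control mice 2, 4 and 5. Every LPA-treated mouse was above every control mouse, with a log2 fold change of 1.26 (SE 0.35, limma adjusted p = 0.0986) and 1.11 in the gene-rich libraries (limma adjusted p = 0.0254). In vehicle-treated against control mice it was 0.95 (limma adjusted p = 0.165) and 1.04 in the gene-rich libraries (limma adjusted p = 0.0406). Between the knockout groups Spdef differed by 0.31 (95% interval -0.42 to 1.03, limma adjusted p = 1), and by 0.07 in the gene-rich libraries.

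The genes whose level followed Hes1 and Atoh1 most closely across the 8 libraries with many detected genes were looked up among 10574 genes that averaged 1 FPKM or more. For Hes1 these were Fes, Phldb3, Tsta3, Slc25a39 and Nudt9, with Pearson's r between 0.978 and 0.990. For Atoh1 they were Mea1, Zfp219, Stk25, Ssu72 and Plekhh3, with r between 0.947 and 0.972. These r are the highest of 10574 and describe 8 libraries of 3 groups, whose reads on genes ranged from 13324912 to 24470409. No gene of the 86 listed was among the 5 most alike in either case, which is likely for any list of that size among so many genes.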

How the data were processed

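RNA of jejunal epithelial cells from 10 mice was sequenced by the authors as poly-A-selected, randomly primed libraries, and the authors deposited FPKM for 35275 genes with gene lengths and GRCm38/mm10 coordinates. The submitters' processing notes name STAR 2.5, TopHat, HTSeq 0.6.1 and DESeq2, without roles. Read numbers were recovered as FPKM times gene length: 100% of values were whole within 0.01 reads, and 63 of the 63 count values that the authors deposited for single genes were equal. The deposited fold changes and p-values of the authors' own comparisons were not used. The log2(FPKM + 0.1) of the 15729 genes whose mean reached 0.1 FPKM was fitted with limma 3.58.1 (trended variance, 1 model of 3 groups, two-sided, Benjamini-Hochberg adjustment, threshold 0.05) in R 4.3.3, and the script was tested on simulated data. FPKM carry no scaling between libraries beyond depth and length, so scaled values and values without the 2 libraries with few detected genes were computed too. Alternatives were other pseudocounts (1, 0.01), no filter or a minimum mean of 1 FPKM, median-of-ratios and quantile scaling, fits of 2 groups only, leaving out single mice or the 2 libraries, a block on mouse number, and edgeR 4.0.16 and DESeq2 1.42.0 on recovered reads. Members, lists and tests were chosen with earlier results of these data known. Besides the 10 genes, the text names list genes that passed in any comparison, the most abundant gene of each role and the 2 with the largest LPA-against-vehicle change, and for Hes1 and Atoh1 the 5 genes most alike. Promoter windows are RefSeq's, matched by symbol for 9 of the 10 genes, Hes1 being the exception.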

Additional observations from a re-analysis of the deposited data

Results flagged for a closer look

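The group of 4 vehicle-treated mice allows a check of single mice that lie far from the rest, by the gap to the nearest mouse as a share of the group's range. Of the 31 genes checked, none of the 10 followed here exceeded Dixon's 95% critical value, and 3 others did, where chance flags about 1 in 20 groups. Neurl3 in vehicle-treated mouse 3 (244 FPKM against 161.7 to 174 FPKM in mice 5, 6 and 7) had a share of 0.851. Aph1b in the same mouse (0.573 FPKM against 0.130 to 0.193 FPKM) had a share of 0.858, and that library detected few genes. Hey1 in vehicle-treated mouse 7 (4 reads, against 0 in the other mice of the group) had a share of 1. Where the other mice are all at 0, any read gives this share, so the Hey1 flag does not measure how far the mouse lay from them.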

How the results depend on the processing

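None of the 10 genes passed between LPA-treated and vehicle-treated mice in any of 17 alternative fits, and none passed against the control mice except Notch2 under DESeq2, where 1 of the 10 genes was called in each comparison. Over all genes, DESeq2 called 7, 1830 and 1489 genes between LPA-treated and vehicle-treated, vehicle-treated and control, and LPA-treated and control mice, where limma called 0, 316 and 365. In the last 2 comparisons the counts were 778 and 1346 in the 8 gene-rich libraries, 804 and 626 after quantile normalization, and 50 and 190 with only the 2 groups compared. Between vehicle-treated and control mice the count was 598 after median-of-ratios scaling and 188 without a filter. Leaving out single mice gave from 44 (without control mouse 5) to 403 (without vehicle-treated mouse 3) there and from 73 (without LPA-treated mouse 5) to 329 (without control mouse 2) between LPA-treated and control mice. Median-of-ratios scaling changed the split from 177 higher and 139 lower to 222 and 376 in vehicle-treated mice and from 243 and 122 to 221 and 269 in LPA-treated mice. Control and LPA-treated mice share the numbers 4 and 5, but the deviations of same-numbered mice correlated at 0.10 and -0.36. For number 5, which vehicle-treated mice also have, the correlation was 0.30 with control mice and -0.21 with LPA-treated mice, and the numbers were not taken to pair the mice. A replicate block on the mouse number called 0 genes and 0 of the 10, with Notch1 at -0.81, and ended the call of Neurl1b between LPA-treated and control mice (limma adjusted p = 0.156). Neurl1b was no longer called in 7 of 17 alternative fits there and in 8 of 17 between vehicle-treated and control mice.

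Signs that turned between LPA-treated and vehicle-treated mice were as follows, as log2 fold changes. With a pseudocount of 0.01, Notch1 was at 0.45 and Hes2 at 0.016. Quantile normalization gave -0.026 for Notch2, -0.22 for Notch3 and -0.0029 for Neurl3, and median-of-ratios scaling -0.027 for Notch3. edgeR gave -0.065 for Notch3, -0.059 for Hes1, -0.036 for Adam10 and -0.047 for Neurl3, and DESeq2 -0.099, -0.11, -0.027 and -0.082. In the gene-rich libraries Dll4 was at -0.063, Adam10 -0.32, Aph1b 0.0051, Rfng 0.22, Xbp1 -0.0067 and Neurod1 -0.044. With single mice left out, the ranges were -0.63 to 0.27 for Notch1, -0.021 to 0.24 for Notch2, -0.15 to 0.18 for Notch3, -0.063 to 0.29 for Dll4, -0.32 to 0.40 for Adam10, -1.52 to 0.022 for Gfi1, -0.77 to 0.021 for Aph1b, -0.21 to 0.22 for Rfng, -0.95 to 0.33 for Numb, -0.0067 to 0.37 for Xbp1, -0.044 to 1.41 for Neurod1 and -0.89 to 0.37 for Hes2. The direction was the same in all 17 fits for Jag1, Dll1 and Atoh1.

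Between vehicle-treated and control mice, a pseudocount of 0.01 gave -0.17 for Notch1 and 0.42 for Notch3, and a pseudocount of 1 gave 0.052 for Atoh1 and -0.11 for Gfi1. Notch1 was at -0.11 and Gfi1 at -0.063 after quantile normalization, and Notch1 at -0.015 after median-of-ratios scaling. Atoh1 was at 0.024 and Gfi1 at -0.59 with edgeR, Gfi1 at -0.61 with DESeq2, and Atoh1 at 0.27 and Gfi1 at -0.67 in the gene-rich libraries. With single mice left out, Notch1 ranged from -0.20 to 0.81, Notch3 from -0.58 to 0.39, Hes1 from -0.41 to 0.19, Atoh1 from -0.98 to 0.97 and Gfi1 from -1.06 to 0.84. Between LPA-treated and control mice, Notch3 was at 0.50 with a pseudocount of 0.01. Quantile normalization gave -0.39 for Notch1 and -0.073 for Dll1, and median-of-ratios scaling gave -0.024 for Notch1, -0.13 for Dll1 and -0.13 for Hes1. Dll1 was at -0.048 and Hes1 at -0.14 with edgeR, and at -0.083 and -0.19 with DESeq2. In the gene-rich libraries Notch1 was at -0.25 and Dll1 at -0.018. With single mice left out, Notch1 ranged from -0.38 to 0.49, Notch3 from -0.55 to 0.42, Dll1 from -0.018 to 0.44 and Gfi1 from -1.85 to 0.22. The cause of these turns was not tested. With a mean of at least 1 FPKM required, Notch1, Notch3 and Gfi1 were not among the genes tested. Notch1, Notch3 and Gfi1 each had 0 reads in 1 library, always 1 of the 2 with few detected genes, and whether depth set these zeros was not tested.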
